A study of Homo sapiens with 6 samples.

Results

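The MYC, MAX and MXD network was read at 10 genes of the deposited gene table, those whose symbol equals MYC, MYCL, MYCN, MAX, MXD1, MXD3, MXD4, MXI1, MNT or MLX, out of 58735 genes in all. These genes encode transcription factors with a basic helix-loop-helix and leucine zipper domain. MAX pairs with MYC, MYCL or MYCN to bind E-box DNA and activate genes of growth and ribosome production, or with MXD1, MXI1, MXD3, MXD4 or MNT, which bring the SIN3 corepressor and its histone deacetylases to the same DNA. MLX resembles MAX, and pairs with the nutrient-sensing factors MondoA (gene MLXIP) and ChREBP (gene MLXIPL) as well as with some MXD proteins. MYC is often overexpressed in pancreatic cancer.

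The samples were SW1990 cells, an established line of pancreatic ductal adenocarcinoma, in 2 groups of 3 libraries of polyadenylated RNA. The group named EPZ received 5 µM EPZ-5676, an inhibitor of the histone methyltransferase DOT1L. The group named NC is labelled untreated in its characteristics, while the treatment protocol gives the controls a matching volume of DMSO, the solvent. How long the cells were treated is not stated in the labels, and neither group carries a stated genetic change.

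The EPZ libraries held 33970420 to 39749648 reads assigned to genes and the NC libraries 35042563 to 38132352. The labels do not say whether the libraries of a group are separate cultures. The p-values therefore reflect the spread among libraries alone, and this spread may be technical. EPZ replicate 1 stood apart on the second principal component of the 500 most variable genes, at -17.8, against 18.9 and 14.1 for the other EPZ libraries and -6.12 to -3.42 for the NC libraries. On the first component, which separated the groups, it was the farthest from the NC libraries. It had 28.4 there, against 9.69 and 6.84 for the other EPZ libraries and -19.8 to -11.0 for the NC libraries. Keratins of ductal epithelium were abundant, with KRT8 at 3095 to 3974 CPM in EPZ libraries and 2418 to 2832 CPM in NC libraries (CPM, reads relative to library size). Of 10 ductal markers 7 had a mean above 1 CPM, CLDN4 among them at 105 to 135 CPM in EPZ libraries and 86.8 to 97.1 CPM in NC libraries. EPCAM, also among the 7, was low, at 0.656 to 1.37 CPM in EPZ libraries and 1.43 to 2.59 CPM in NC libraries. The remaining 3, KRT19, CDH1 and LGALS4, were near absent: KRT19 stayed at or below 0.612 CPM in EPZ libraries and 0.744 CPM in NC libraries, and CDH1 was listed at 0 in every library. The 4 acinar markers were at 0 throughout, and the 6 leukocyte markers summed to 3.85 to 5.82 CPM in EPZ libraries and 2.29 to 10.3 CPM in NC libraries. The 6 fibroblast markers summed to 93.85 to 100.01 CPM in EPZ libraries and 83.9 to 93.8 CPM in NC libraries. Within that sum COL1A1 had 56.3 to 64.6 CPM in EPZ libraries and 35.9 to 50.8 CPM in NC libraries, while DCN had 23.3 to 25.9 CPM in EPZ libraries and 27.2 to 37.2 CPM in NC libraries. DOT1L mRNA, which does not check the labels because the compound acts on the protein, differed by 0.09 ± 0.13 (log2, ± SE; adjusted p = 0.636). After the correction for GC content and length, explained with the members, it was called lower (-0.30 ± 0.09, adjusted p = 0.0375).

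The E-box CACGTG, the site that MAX pairs bind, is also found in start regions of the network itself. Shown are the 3 regions that hold it and, beside them, one of MXI1, a member lower as deposited but not called after the correction. They come from RefSeq (build GRCh38.p14) and run from 250 bases before to 50 after the transcription start, 5′ to 3′, in lower case with CACGTG in capitals. The region of MXD4 is chr4:2262060-2262359 on the minus strand, and its E-box begins 238 bases before the start. That of MNT is chr17:2401011-2401310 on the minus strand, with the E-box 193 bases before the start. That of MLX is chr17:42566850-42567149 on the plus strand, with the E-box 50 bases before the start. The first of 3 start regions listed for MXI1, chr10:110207355-110207654 on the plus strand, holds none.
MXD4: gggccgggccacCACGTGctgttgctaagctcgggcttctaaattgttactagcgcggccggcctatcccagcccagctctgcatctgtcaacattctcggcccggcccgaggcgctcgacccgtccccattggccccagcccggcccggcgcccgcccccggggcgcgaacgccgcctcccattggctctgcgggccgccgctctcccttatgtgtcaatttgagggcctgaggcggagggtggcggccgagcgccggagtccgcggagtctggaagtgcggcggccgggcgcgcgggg
MNT: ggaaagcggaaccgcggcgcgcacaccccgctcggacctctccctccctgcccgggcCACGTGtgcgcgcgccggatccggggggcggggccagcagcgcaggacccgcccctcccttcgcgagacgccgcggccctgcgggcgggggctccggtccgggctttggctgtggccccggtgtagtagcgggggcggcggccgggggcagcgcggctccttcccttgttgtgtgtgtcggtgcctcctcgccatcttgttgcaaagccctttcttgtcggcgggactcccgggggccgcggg
MLX: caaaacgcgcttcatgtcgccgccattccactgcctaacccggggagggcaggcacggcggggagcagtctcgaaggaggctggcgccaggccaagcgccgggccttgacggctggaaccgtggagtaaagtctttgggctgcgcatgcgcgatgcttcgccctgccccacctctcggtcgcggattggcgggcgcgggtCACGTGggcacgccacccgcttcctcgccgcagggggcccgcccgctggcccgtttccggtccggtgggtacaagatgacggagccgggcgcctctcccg
MXI1: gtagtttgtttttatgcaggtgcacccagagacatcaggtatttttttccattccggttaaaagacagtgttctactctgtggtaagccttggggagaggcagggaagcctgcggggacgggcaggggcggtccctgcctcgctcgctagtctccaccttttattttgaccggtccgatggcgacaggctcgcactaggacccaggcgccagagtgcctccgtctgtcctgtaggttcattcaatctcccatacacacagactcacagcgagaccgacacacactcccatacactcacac
The motif reads the same on both strands, so 1 search covers both. MYC was left out of this search. Of the 9 other members, 3 held the motif: MXD4, MNT and MLX. None of the regions of MYCL, MYCN, MXD1, MXD3, MAX or MXI1 did, counting all 12 regions of the 9 genes. Counted by region, 3 of the 12 held the motif, beside 7.26% of all 35116 start regions of the table. The 12 regions had 55% to 76% GC, and no share for regions of like GC content is given. A match is a description of these letters and not a bound site. Any link between the motif and the fold changes was not tested, and MNT and MLX, which hold it, were not called.

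In the fit of all 15496 tested genes, MXD4 was higher in EPZ cells, and MXI1 and MXD1 were lower. MYC, MAX, MXD3, MNT, MLX and MYCL did not pass the test. These are bulk libraries, in which fewer cells of a kind and less RNA per cell cannot be told apart. Thus 1 of 9 tested members was higher, beside 15% of all tested genes, and 2 of 9 were lower, beside 18.7% (quasi-likelihood test of edgeR, Benjamini-Hochberg adjusted p below 0.05). The shares among the members were near those of all genes. In CPM, 1 member had every EPZ library above every NC library (21.8% of all tested genes) and 2 had every EPZ library below (24.2%). The median log2 fold change was -0.06 over the 9 members and -0.05 over all tested genes. MYCN, at 0, 6 and 2 reads in EPZ libraries and 0 reads in each NC library, was below the filter on low counts. A count of 0 allows up to 0.0754 to 0.0859 CPM in the NC libraries (3 reads, counting error only).

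Fold changes in these libraries rose with the GC content of the transcript. The tested members run from 42.7% GC for MXD1 to 61.4% for MNT, within the 27.8% to 83.9% of all tested genes. Values are therefore also given after a correction that removes each library's smooth trend with GC content and transcript length, which also removes any response to the compound that follows those properties. After the correction 0 of 9 members were higher, beside 5.41% of all genes, and 2 of 9 were lower, beside 5.58%, and these were MYC and MXD3 in place of MXI1 and MXD1. Which members were called thus depended on this step, and the share of the trend that is technical was not tested.

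**Figure D1:**
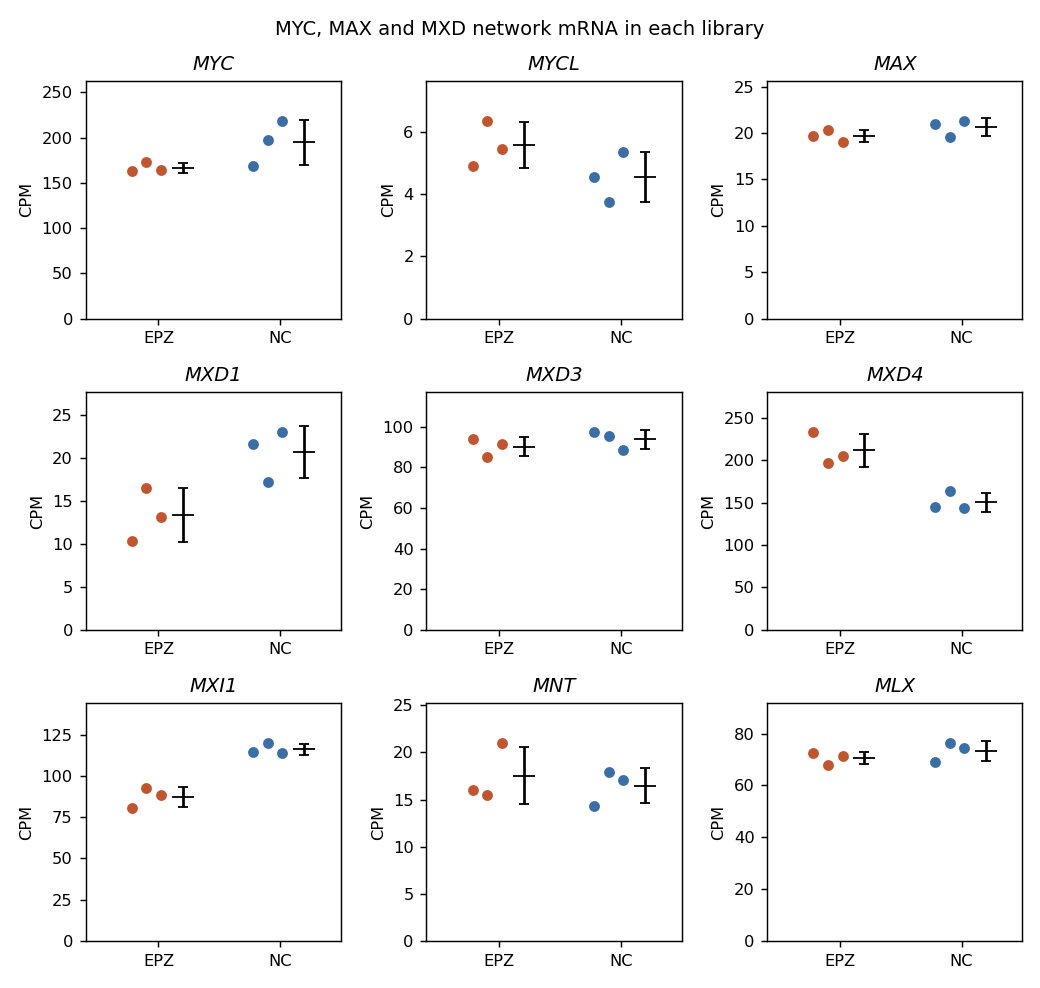
Normalized read level (CPM, linear axes from 0, TMM-scaled) of the 9 tested members, with 1 point per library of EPZ-5676-treated (EPZ) and control (NC) cells and the mean ± SD of 3 libraries beside them. All 3 EPZ points lie above the NC points for MXD4 and below them for MXI1 and MXD1, and the groups overlap for the other 6 genes.

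MYC (ENSG00000136997, chromosome 8, 127735434 to 127741434, plus strand, GRCh38) encodes the network's main activator. It had 163, 173 and 165 CPM in EPZ libraries, against 169, 197 and 219 CPM in NC libraries. The EPZ libraries were close together, and only EPZ replicate 2 exceeded the lowest control, NC replicate 1. The means were 167 ± 5.44 CPM in EPZ cells and 195 ± 24.9 CPM in NC cells (SD, n = 3 each). The log2 fold change of -0.23 ± 0.11 (SE) missed the threshold (adjusted p = 0.104). It passed without NC replicate 1, at -0.31 (adjusted p = 0.0304), and was -0.14 without NC replicate 3 (adjusted p = 0.424). The transcript has 53.9% GC, in a GC decile of the tested genes where 261 genes were higher and 48 lower, with a median log2 fold change of 0.16. After the correction MYC was lower in EPZ cells, with a log2 fold change of -0.38 ± 0.08 (adjusted p = 0.00444). That call held with any library left out, with adjusted p between 0.00175 and 0.0390.

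MYCL (ENSG00000116990, chromosome 1, 39895426 to 39902256), the relative of MYC first found amplified in lung cancer, had 4.89, 6.36 and 5.44 CPM in EPZ libraries and 4.55, 3.75 and 5.33 CPM in NC libraries. Its groups overlapped, and the log2 fold change was 0.29 ± 0.23 (adjusted p = 0.357), or 0.09 ± 0.22 after the correction. MYCN (ENSG00000134323, chromosome 2, 15940564 to 15947007), the relative amplified in neuroblastoma, was at the few reads given above. MYC made up 98.0% ± 0.246 of the summed level per length of the MYC family in EPZ cells and 98.6% ± 0.233 in NC cells (SD, n = 3 each).

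MAX (ENSG00000125952, chromosome 14, 65006174 to 65102695, minus strand) encodes the shared partner. It had 19.7, 20.3 and 19.0 CPM in EPZ libraries, against 21.0, 19.5 and 21.3 CPM in NC libraries. The groups overlapped and the spread was small, with a log2 fold change of -0.07 ± 0.14 (adjusted p = 0.745). With the correction it was -0.12 ± 0.12 (adjusted p = 0.60). The gene's span overlaps FNTB on the opposite strand. The library kit marks strand, but the strand setting used in counting is not stated.

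MXD4 (ENSG00000123933, chromosome 4, 2247432 to 2262294, minus strand), a MAX partner that represses transcription, was the only member called higher. It had 234, 197 and 205 CPM in EPZ libraries, against 145, 164 and 143 CPM in NC libraries. Every EPZ library lay above every NC library, with EPZ replicate 1 the highest. The fold was 1.41, a log2 fold change of 0.49 ± 0.10 (adjusted p = 0.00143). It remained called with any 1 library left out, with log2 fold changes of 0.42 to 0.57. The transcript has 57.6% GC, in a GC decile where 418 were higher and 20 lower (median 0.26). After the correction the log2 fold change was 0.22 ± 0.08, which missed the threshold (adjusted p = 0.0771).

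MXI1 (ENSG00000119950, chromosome 10, 110207605 to 110287365, plus strand), a repressor also called MXD2, had 80.4, 92.9 and 88.5 CPM in EPZ libraries, against 115, 120 and 114 CPM in NC libraries. All EPZ libraries lay below all NC libraries, which differed little among themselves. MXI1 was at 0.751 of its NC level, a log2 fold change of -0.41 ± 0.10 (adjusted p = 0.00392), and stayed called with any 1 library left out (adjusted p up to 0.0248). Its transcript has 43.7% GC, in a GC decile where 599 genes were lower and 10 higher (median -0.45). After the correction the log2 fold change was -0.07 ± 0.08 (adjusted p = 0.689).

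MXD1 (ENSG00000059728, chromosome 2, 69897688 to 69942945, plus strand), the repressor first described as MAD and known for rising as cells differentiate, had 10.4, 16.5 and 13.1 CPM in EPZ libraries, against 21.6, 17.2 and 23.0 CPM in NC libraries. The groups did not overlap, but EPZ replicate 2 and NC replicate 2 were close. MXD1 was at 0.647 of its NC level, or -0.63 ± 0.18 on the log2 scale (adjusted p = 0.00997). The call was lost without EPZ replicate 1 (-0.48, adjusted p = 0.0682) and without NC replicate 3 (-0.54, adjusted p = 0.0639). After the correction the log2 fold change was -0.22 ± 0.14 (adjusted p = 0.345), for a transcript of 42.7% GC in the same GC decile as MXI1. The span overlaps that of SNRNP27 on the same strand by 7888 bases, so reads there are uncertain. SNRNP27 had 190, 208 and 256 reads in EPZ libraries and 381, 260 and 315 reads in NC libraries.

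MXD3 (ENSG00000213347, chromosome 5, 177301461 to 177312757, minus strand), the repressor of the family that is known in mouse from dividing cells, had 94.0, 85.1 and 91.6 CPM in EPZ libraries, against 97.6, 95.3 and 88.5 CPM in NC libraries. The groups overlapped, at -0.06 ± 0.10 on the log2 scale (adjusted p = 0.706). The transcript has 61.3% GC, in a GC decile where 639 genes were higher and 11 lower (median 0.35). After the correction MXD3 was lower in EPZ cells at -0.44 ± 0.08 (adjusted p = 0.00163), a call that held with any library left out (adjusted p up to 0.0126). The span overlaps RAB24 on the same strand and the abundant PRELID1 on the opposite strand.

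MNT (ENSG00000070444, chromosome 17, 2384060 to 2401118, minus strand), a widely expressed repressor that competes with MYC for MAX, had 16.0, 15.5 and 21.0 CPM in EPZ libraries and 14.4, 17.9 and 17.1 CPM in NC libraries. The groups overlapped and EPZ replicate 3 was the highest of all. The log2 fold change was 0.09 ± 0.16 (adjusted p = 0.701). It turned to -0.06 without EPZ replicate 3, and to -0.28 ± 0.14 after the correction (adjusted p = 0.219).

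MLX (ENSG00000108788, chromosome 17, 42567068 to 42573239, plus strand), the partner of MondoA and ChREBP, had 72.3, 67.9 and 71.5 CPM in EPZ libraries, against 69.0, 76.4 and 74.6 CPM in NC libraries. The groups overlapped, with a log2 fold change of -0.06 ± 0.10 (adjusted p = 0.715). Correcting for GC and length gave -0.13 ± 0.08 (adjusted p = 0.367). The span overlaps that of PSMC3IP on the opposite strand by 925 bases. PSMC3IP had 426, 404 and 592 reads in EPZ libraries and 507, 492 and 415 reads in NC libraries.

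**Figure D2:**
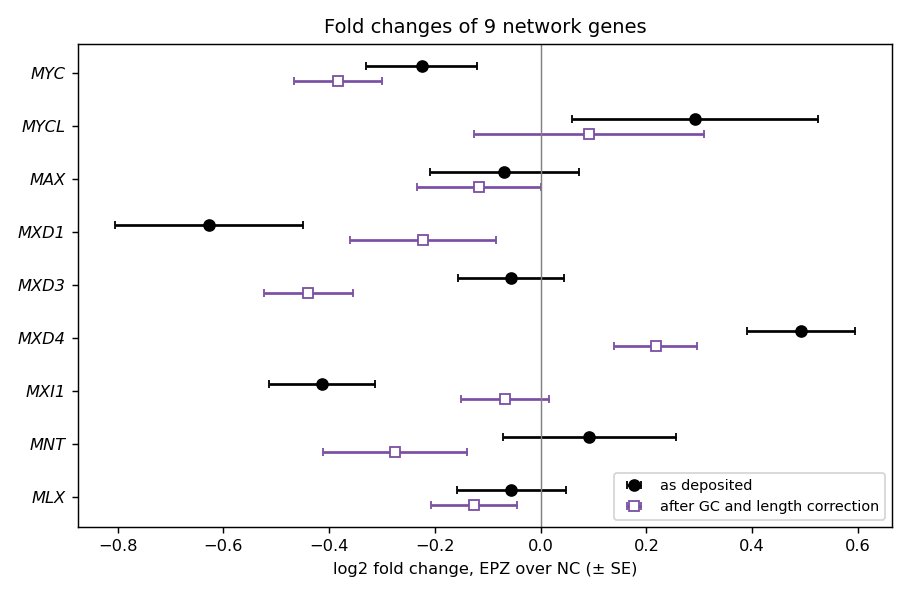
Log2 fold changes of EPZ over NC (horizontal axis) with standard errors for the 9 tested members, from the counts as deposited (filled circles) and after the GC and length correction (open squares). The correction brings MXD4 to 0.22 and MXI1 to -0.07, nearer to 0, and MYC to -0.38 and MXD3 to -0.44, farther from 0.

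**Figure D3:**
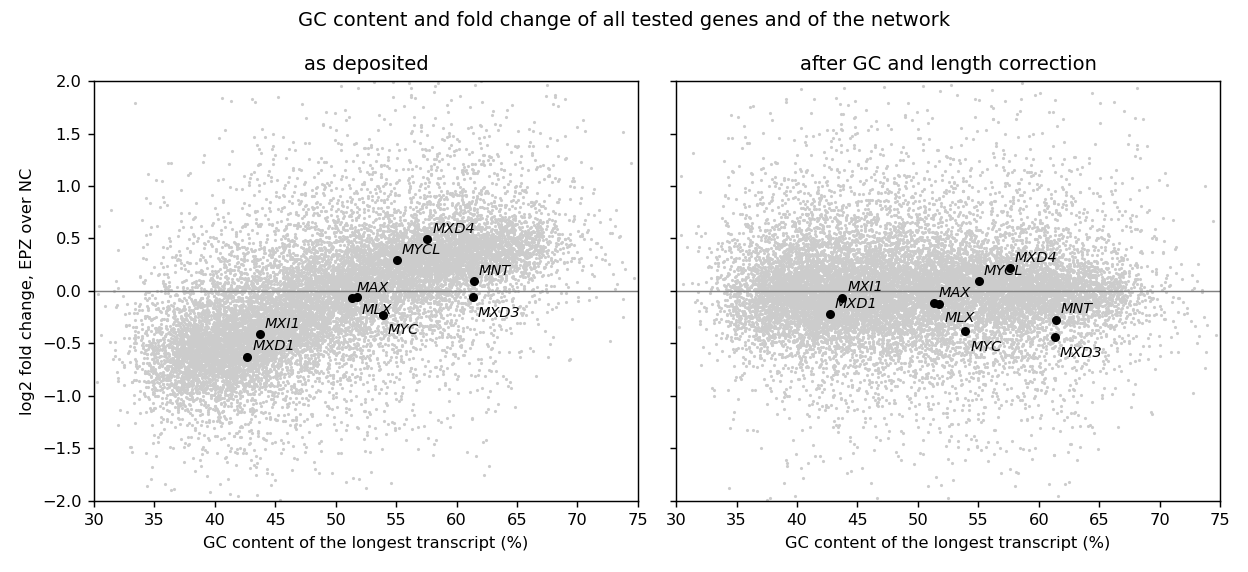
Log2 fold change of EPZ over NC (vertical axis) against the GC content of the longest transcript in percent (horizontal axis) for all tested genes within the axes (grey) and the 9 members (black, named), as deposited on the left and after the GC and length correction on the right. On the left the cloud rises with GC content, with MXD1 and MXI1 inside its low end and MYC, MXD3 and MNT below its middle.

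Levels of different genes were compared per length, in TPM (reads per base of gene length, scaled to the same total in every library). MYC was the most abundant member in every library, at 164 ± 14.5 TPM in EPZ cells and 209 ± 29.95 TPM in NC cells (SD, n = 3 each). MXD4 came next in EPZ cells with 88.1 ± 2.69 TPM, against 68.3 ± 2.03 TPM in NC cells. MXI1 had 56.0 ± 7.37 TPM in EPZ cells, against 80.9 ± 1.45 TPM in NC cells, where it was second to MYC. MXD3, at 51.5 ± 2.46 TPM in EPZ cells and 58.4 ± 3.02 TPM in NC cells, and MLX, at 48.8 ± 2.49 TPM in EPZ cells and 55.2 ± 2.67 TPM in NC cells, followed. In EPZ cells MXI1, MXD3 and MLX overlapped over the libraries, and in NC cells MXD3 and MLX did.

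MAX was much less abundant than MYC, at 13.1 ± 0.938 TPM in EPZ cells and 14.96 ± 1.36 TPM in NC cells. MXD1 had 6.24 ± 1.75 TPM in EPZ cells and 10.5 ± 1.96 TPM in NC cells, and MNT 5.94 ± 1.25 TPM in EPZ cells and 6.04 ± 0.591 TPM in NC cells. The libraries of MXD1 and MNT overlapped in EPZ cells and not in NC cells. MYCL was the lowest tested member, at 3.25 ± 0.599 TPM in EPZ cells and 2.89 ± 0.621 TPM in NC cells. The ratio of MYC to MAX was 12.2, 12.6 and 12.8 in EPZ libraries and 11.9, 14.9 and 15.1 in NC libraries, which overlapped.

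The make-up of the repressors, as deposited, differed between the groups. The ratio of MXD4 to MXI1 in TPM was 1.90, 1.38 and 1.51 in EPZ libraries, against 0.824, 0.890 and 0.820 in NC libraries, with no overlap. MXD4 made up 42.5% ± 2.91 of the summed TPM of MXD1, MXD3, MXD4, MXI1 and MNT in EPZ cells and 30.5% ± 1.31 in NC cells, and MXI1 26.9% ± 2.57 in EPZ cells and 36.1% ± 0.367 in NC cells (SD, n = 3 each). These shares follow from the members' own differences and were not tested apart from them. They set MXD4, of 57.6% GC, against MXI1, of 43.7% GC, and neither gene was called after the correction (0.22 and -0.07). The sum of the 5 repressors was 197, 211 and 215 TPM in EPZ libraries and 226, 221 and 225 TPM in NC libraries. The sum of the MYC family was 151, 180.01 and 171 TPM in EPZ libraries and 187, 202 and 245 TPM in NC libraries. The ratio of repressors to MYC family, at 1.31, 1.17 and 1.26 in EPZ libraries and 1.21, 1.09 and 0.918 in NC libraries, overlapped between the groups.

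The order depended on the length used. With the longest transcript in place of the deposited gene length, MXD4 was above MXI1 in both groups, at 104 against 52.8 TPM in EPZ cells and 81.0 against 76.3 TPM in NC cells, and MXD3 was second to MYC in NC cells at 93.8 TPM. The scaling mattered as well. In TPM, which has no TMM scaling, every EPZ library was below every NC library for MYC, MXD3 and MLX too, while in TMM-scaled CPM these groups overlapped.

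**Figure D4:**
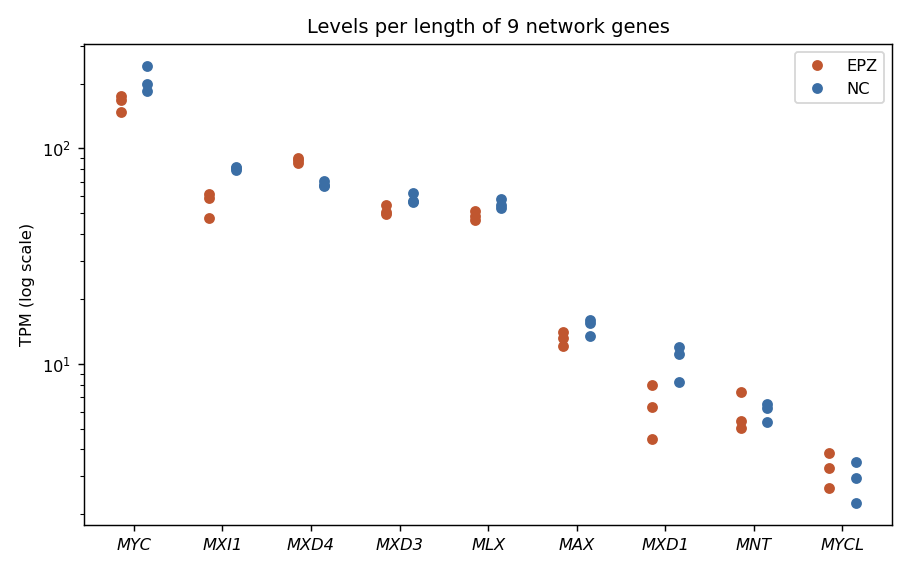
Level per length (TPM, log axis) of the 9 tested members in each EPZ library (left points of each pair) and NC library (right points), ordered by the mean of the NC libraries. MYC is the highest in every library, and MXD4 lies above MXI1 in the EPZ libraries and below it in the NC libraries.

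The mRNAs of 3 proteins that pair with MAX or MLX, outside the 10 members, were also read. MLXIP, the gene of MondoA, was called higher in EPZ cells, at 79.1 ± 10.2 CPM against 61.6 ± 13.7 CPM in NC cells (SD, n = 3 each), though the libraries overlapped. The log2 difference of 0.36 ± 0.14 (adjusted p = 0.0494) was 0.10 with the correction (adjusted p = 0.644). The call was lost without EPZ replicate 1 (0.30), EPZ replicate 3 (0.32), NC replicate 1 (0.20) or NC replicate 3 (0.42). MLXIPL, the gene of ChREBP, did not pass at 6.38 ± 0.457 CPM in EPZ cells and 4.72 ± 1.70 CPM in NC cells (adjusted p = 0.199). MGA, a large MAX partner in a repressor complex, did not pass either (-0.21 ± 0.19, adjusted p = 0.419), and its sign turned with the correction (0.28, adjusted p = 0.249).

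The lists of partners and targets are described by counts and log2 medians, to be read beside 15% of all tested genes called higher, 18.7% called lower and a median of -0.05, or, after the correction, 5.41%, 5.58% and a median of -0.0045. Of 7 tested targets of MondoA, ChREBP and MLX, 0 were higher and 2 lower, with a list median of -0.04 (1 and 2 after the correction, median -0.12). The lipid genes SCD, a fatty acid desaturase, and ACACA, which makes malonyl-CoA, fell (-0.64 ± 0.11, adjusted p = 0.000347, and -0.51 ± 0.14, adjusted p = 0.00752), and both also fell after the correction. ACACA was not called without NC replicate 3 (-0.37, adjusted p = 0.0737). TXNIP, the best known MondoA target, had 182 ± 2.04 CPM in EPZ cells and 158 ± 13.2 CPM in NC cells and was not called (0.21 ± 0.10, adjusted p = 0.106). After the correction TXNIP was called higher (0.56, adjusted p = 5.46e-05). FASN, fatty acid synthase, did not pass (0.29 ± 0.14, adjusted p = 0.124), but did without EPZ replicate 2 (0.43) or NC replicate 2 (0.43). After the correction FASN had the opposite sign (-0.15, adjusted p = 0.441).

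Among 18 tested genes of the SIN3 and histone deacetylase corepressor, which the MXD proteins recruit, 3 were higher and 5 lower (2 and 2 after the correction), with a median of -0.31, and -0.075 after the correction. The deacetylase HDAC2 (-0.67 ± 0.14), the histone chaperone RBBP7 (-0.63 ± 0.11) and SAP30 (-0.56 ± 0.12), a subunit that bridges to other factors, fell, and BRMS1 (0.45 ± 0.10), another subunit, rose. SAP30 remained lower after the correction (-0.60, adjusted p = 0.000540), while HDAC2, RBBP7 and BRMS1 did not pass (adjusted p = 0.636, 0.115 and 0.655). HDAC1 (0.15 ± 0.09) and SAP18 (-0.03 ± 0.10) were not called, and both were called higher after the correction (0.29 and 0.39).

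Among 16 MYC coactivators, 5 were higher and 2 lower (1 and 0 after the correction), with a median of 0.27, and 0.00898 after the correction. The elongation kinase CDK9 (0.52 ± 0.10), the acetyltransferase KAT2A (0.50 ± 0.11) and the ATPase RUVBL2 (0.42 ± 0.10) rose, and the chromatin subunit ACTL6A (-0.60 ± 0.14) fell. Of these, CDK9 was still called after the correction (0.32, adjusted p = 0.00940). RUVBL1, the partner ATPase of RUVBL2, did not pass (0.26 ± 0.10), though it did without NC replicate 2 (0.32).

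The list of factors that set the stability of MYC protein held 5 higher and 7 lower of 20 tested genes (2 and 4 after the correction), with a median of -0.22, and -0.033 after the correction. Of the genes named from this list, FBXO32 differed most, a ubiquitin ligase subunit known from muscle wasting. It had 10.7 ± 2.43 CPM in EPZ cells and 4.09 ± 1.24 CPM in NC cells (SD, n = 3 each). FBXO32 rose by 1.39 ± 0.24 on the log2 scale (adjusted p = 0.000347), and by 1.78 after the correction. PPP2R5A (-0.97 ± 0.20), a regulatory subunit of the phosphatase PP2A, and CIP2A (-0.97 ± 0.19) and SET (-0.58 ± 0.11), inhibitors of PP2A, fell. After the correction PPP2R5A (-0.78) and SET (-0.26) were still called and CIP2A was not (-0.39, adjusted p = 0.166). The ubiquitin ligases HUWE1 (0.11 ± 0.14) and TRPC4AP (0.13 ± 0.10) did not pass.

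The list of Miz-1 and of genes that MYC represses, most of them through Miz-1, held 6 higher and 0 lower of 9 tested genes (3 and 0 after the correction), with a median of 0.37, and 0.10 after the correction. As deposited, the 6 called genes have transcripts of 55.6% to 65.9% GC, and the 3 not called 44.6% to 52.1%. In the GC deciles of those 6, 418, 639 and 769 of 1548, 1549 and 1549 genes were higher, and 20, 11 and 6 lower. How far the list's calls go with GC content was not tested. The 6 include ZBTB17, the gene of Miz-1 itself (0.37 ± 0.11), which is a cofactor and no repressed gene and was not called after the correction (-0.04, adjusted p = 0.862). The cell cycle inhibitor CDKN1A had 671 ± 45.8 CPM in EPZ cells and 445 ± 32.2 CPM in NC cells (SD, n = 3 each; 0.59 ± 0.10, adjusted p = 0.000357). CEBPA (1.15 ± 0.24), a differentiation factor, GADD45B (0.38 ± 0.10), a stress response gene, and NDRG2 (1.76 ± 0.48) also rose. NDRG2 was low, at 44, 81 and 84 reads in EPZ libraries and 37, 20 and 8 reads in NC libraries. CDKN1A, CEBPA and NDRG2 were called after the correction too (0.30, 0.69 and 1.53) and GADD45B was not. NDRG1 (0.17 ± 0.11) and the inhibitor CDKN2B (-0.07 ± 0.12) did not pass. CDKN1A is also known as a target of p53.

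As deposited, each list of genes that MYC activates had calls both ways, and after the correction only the metabolic list did. Of 28 tested genes of ribosome biogenesis, 5 were higher and 8 lower (0 and 2 after the correction), with a median of -0.01, and -0.055 after the correction. The nucleolar chaperone NPM1 had 305, 317 and 362 CPM in EPZ libraries, against 718, 561 and 484 CPM in NC libraries, with no overlap. NPM1 fell by 0.84 ± 0.12 on the log2 scale, or by 0.45 after the correction (adjusted p = 0.00267). The helicase DDX18 (-0.75 ± 0.14) fell, while BOP1 (0.59 ± 0.11), a factor of large-subunit assembly, and GRWD1 (0.57 ± 0.12) rose, and none of these 3 was called after the correction. The methyltransferase FBL (0.25 ± 0.11) and PA2G4 (0.12 ± 0.10) did not pass, though FBL did without NC replicate 2 (0.33).

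Of 25 metabolic targets, 5 were higher and 8 lower (3 and 3 after the correction), with a median of -0.04, and -0.055 after the correction. The purine synthesis genes PAICS (-0.82 ± 0.12), PPAT (-1.17 ± 0.24) and PRPS2 (-0.57 ± 0.13) and the transferrin receptor gene TFRC (-0.84 ± 0.16) fell. Other purine synthesis genes of the list did not follow them: GART was not called (-0.26 ± 0.11, adjusted p = 0.0700) and IMPDH2 was higher (0.33 ± 0.10, adjusted p = 0.0173), also after the correction (0.24, adjusted p = 0.0396). The other genes called higher were ODC1, SRM, CAD and PKM. IMPDH2, GART and these 4 were named after their values were seen. Of the 4 genes that fell and were named first, PAICS was called after the correction (-0.38, adjusted p = 0.0101). The glycolytic enzyme ENO1 (0.22 ± 0.11) and the glucose transporter SLC2A1 (0.27 ± 0.11) did not pass, though both did without NC replicate 2 (0.30 and 0.37).

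Of 11 tested cell cycle targets, 3 were higher and 4 lower (0 and 2 after the correction), with a median of 0.07, and 0.12 after the correction. The factor E2F1 (0.50 ± 0.11) and the kinase CDK4 (0.37 ± 0.10) rose, and the factor E2F2 (-0.47 ± 0.15) and the ubiquitin ligase scaffold CUL1 (-0.57 ± 0.14) fell. CDK4 was not called without EPZ replicate 1 (0.29, adjusted p = 0.0520), nor E2F2 without either of EPZ replicates 1 and 2 or NC replicates 2 and 3 (-0.48 to -0.38). E2F2 was called after the correction (-0.73, adjusted p = 0.000656). The phosphatase CDC25A (-0.35 ± 0.15) was called lower after the correction alone (-0.41, adjusted p = 0.0363), and the cyclin CCND1 (0.12 ± 0.11) was not called. Of 10 translation targets, 1 was higher and 2 lower (0 and 0 after the correction), with a median of 0.09, and -0.045 after the correction. The cap-binding factor EIF4E (-0.79 ± 0.17) and the initiation subunit EIF2S1 (-0.61 ± 0.11) fell and EIF5A (0.43 ± 0.11) rose, while EEF1B2 (0.00 ± 0.11) and PABPC1 (-0.18 ± 0.11) did not pass. The noncoding genes MYCNOS and MYCNUT of the MYCN locus were below the filter on low counts.

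**Figure D5:**
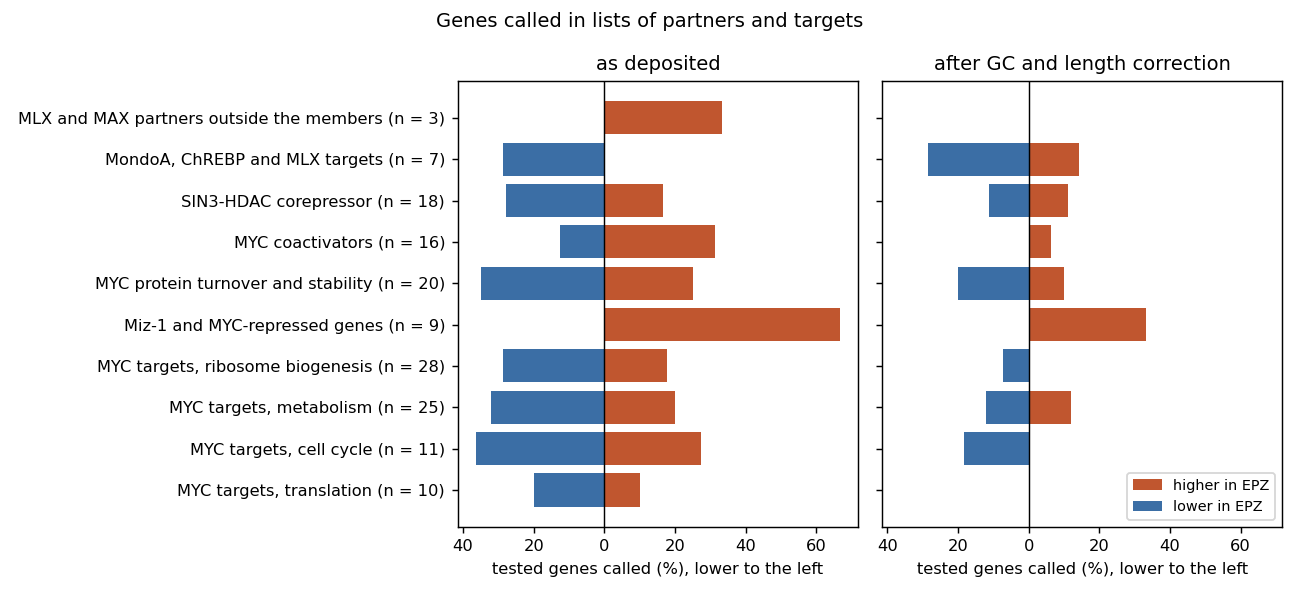
Percent of the tested genes of each list (n in parentheses) called higher (bars to the right) or lower (bars to the left) in EPZ than in NC cells, as deposited and after the GC and length correction. The list of Miz-1 and MYC-repressed genes has calls to the right alone in both panels, with 6 and 3 of 9 genes. The lists of activated targets have calls on both sides as deposited. After the correction only the metabolism list has, those of ribosome biogenesis and cell cycle have calls to the left alone, and translation has none. The lists were chosen with earlier results of these data known.

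The genes whose pattern was most like that of a member were found by the root mean square difference of mean-centred log2 CPM over the 6 libraries, among 10693 protein-coding genes. This measure includes the difference between the groups, so like fold changes follow from the choice. Closest to MYC were ALX4 (0.0434), TFG (0.0505) and BHLHE40 (0.0529), none of them called. Closest to MXD4 were RNF5 (0.0189), AGPAT2 (0.0223) and STUB1 (0.0235), with log2 fold changes of 0.49 ± 0.11, 0.53 ± 0.10 and 0.50 ± 0.10. Closest to MXI1 were CENPA (0.0374), ANKRD10 (0.0378) and OSBPL10 (0.0453), and closest to MXD1 were SCAF11 (0.0377), ZRANB2 (0.0488) and ZMAT3 (0.0510). STUB1, a ubiquitin ligase, also stands in the list of MYC stability. Its transcript has 65.0% GC, and it was not called after the correction (0.05, adjusted p = 0.742).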

How the data were processed

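Polyadenylated RNA of 6 SW1990 libraries, 3 EPZ and 3 NC, was compared. The submitters' processing notes name HISAT2 2.2.1 and the build GRCh38 (hg38). The authors deposited raw read counts per gene, not normalized, with a gene length in bases. Neither the counting program nor its strand setting is stated. Coordinates of all 58735 genes matched GENCODE release 29, which gave GC content and the longest transcript.

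Counts were tested with edgeR 4.0.16 (R 4.3.3) by filterByExpr with a minimum count of 10, TMM scaling and the two-sided quasi-likelihood test (robust), with adjusted p under 0.05 over all 15496 tested genes. The standard error is the log2 fold change divided by the square root of F. CPM uses TMM-scaled library sizes. TPM uses the deposited gene length. For the correction, natural splines with 5 degrees of freedom in GC content and in log2 transcript length were fitted per library to log2 CPM (prior count 2) and entered as offsets; tested genes without a GC value got the median. Alternatives were DESeq2 1.42.0, voom in limma 3.58.1, scaling by RLE or the upper quartile, a stricter filter or none, protein-coding genes alone, a replicate block, and each library left out. The fits were tested on simulated data. No library pair of a group agreed within sampling noise (chi-square per degree of freedom 11.6 to 36.5).

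All 10 members were named, with MGA, MLXIP and MLXIPL and, of each gene list, the 4 called genes of smallest p and the 2 most expressed genes not called; 1 gene that this rule names is not reported here. Likeness was measured to protein-coding genes whose mean log2 CPM was 1 or more, naming 3 per member printed. Of 158 list symbols, 4 had no match. The members and lists were chosen with earlier results of these data known. Figures were drawn with matplotlib 3.10.9.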

Additional observations from a re-analysis of the deposited data

How the results depend on the processing

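The GC correction moved the results most. With GC alone, GC and length, and GC and length with the replicate block, 762, 838 and 689 genes were higher and 729, 864 and 685 lower, against 2326 and 2899 as deposited, and 0 members were higher in all 3. Correcting for length alone gave 2784 higher and 2229 lower genes and changed no member's call. In the order of the 3 GC settings, the log2 fold changes were -0.37, -0.38 and -0.38 for MYC and -0.43, -0.44 and -0.43 for MXD3, both called. They were -0.22, -0.22 and -0.24 for MXD1, 0.22, 0.22 and 0.22 for MXD4 and -0.061, -0.067 and -0.063 for MXI1, none called. MNT changed sign, at -0.27, -0.28 and -0.29. MAX and MLX kept their direction and stayed uncalled under all 24 alternatives. With each library left out, as deposited and corrected, 397 to 2780 genes were higher and 512 to 3167 lower, and 0 to 1 members were higher and 1 to 3 lower. Over these 12 fits the log2 fold changes were -0.44 to -0.14 for MYC, -0.045 to 0.42 for MYCL, -0.81 to -0.13 for MXD1, -0.49 to -0.015 for MXD3, 0.16 to 0.57 for MXD4, -0.46 to 0.015 for MXI1 and -0.42 to 0.18 for MNT. List genes that changed sign in some of these fits had -0.31 to 0.37 for MGA, -0.014 to 0.50 for MLXIP, -0.20 to 0.62 for MLXIPL, -0.25 to 0.43 for FASN, -0.83 to 0.018 for HDAC2, -0.061 to 0.47 for SAP18, -0.019 to 0.32 for HUWE1, -0.054 to 0.16 for TRPC4AP, -0.13 to 0.27 for CDKN2B and -0.089 to 0.16 for EEF1B2. In the 3 GC settings the sign turned for MGA (0.24, 0.28 and 0.29), FASN (-0.16, -0.15 and -0.15), SAP18 (0.40, 0.39 and 0.39), TRPC4AP (-0.015, -0.024 and -0.022) and CDKN2B (0.25, 0.24 and 0.24). It turned with length alone for MGA (0.13), CDKN2B (0.027) and EEF1B2 (-0.016), with RLE scaling and DESeq2 for SAP18 (0.011 and 0.011), and with no filter and with protein-coding genes alone for EEF1B2 (-0.0017 and -0.0018). Deviations of same-numbered libraries from their group means correlated at r = -0.11, -0.093 and 0.047 for numbers 1, 2 and 3. The highest r with another number was 0.15, 0.086 and 0.038. With 3 libraries in each group these values cannot decide whether same-numbered libraries are paired, and the labels do not pair them. The replicate block gave 1677 higher and 2219 lower genes and changed no member's call. The causes of these changes were not tested. Counts were lowest for MYCN, at 0 to 6 reads per library, and next for MYCL, at 131 to 223. MNT (498 to 831 reads) and MXD1 (322 to 859 reads) followed. How far depth limits these genes was not tested.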
